A study of Rattus norvegicus with 8 samples.

Results

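A set of 27 rat genes for synapses and mature neurons was followed in retinal cells that had received a control plasmid or a Klf4 plasmid. The genes were given as a list of symbols in 5 roles: vesicle release (15 genes), receptors (6), a channel (1), transport (3) and RNA binding (2). Probes were assigned to them through the transcript accessions on the array. Of the 27 genes, 26 had a probe and 25 were bright enough to be tested, among 29988 genes and unnamed features in all. Celf4 had no probe by accession and was not analysed here, and the probe of Gria2 was not well above background on any of the 8 arrays.

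The cells came from Lister hooded rats of postnatal day 0, whose retinas were electroporated in vitro with square pulses of 25 V and 50 ms and then cultured as explants for 39 hours. GFP-positive cells, which had taken up plasmid, were sorted from both groups, and by the labels the groups differed in the plasmid alone. Each group had 4 arrays, with replicate numbers from 2 to 5. Nothing in the labels says whether the replicates were separate animals, so the p-values speak only of the spread among these samples, and that spread may be technical. The promoter driving Klf4 and the makeup of the control plasmid are not given in the sources used here.

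Neurons signal to one another when vesicles loaded with transmitter fuse with the presynaptic membrane. SNARE proteins on the vesicle and on the membrane pull the lipid layers together, synaptotagmins sense calcium, and complexins clamp and prime the SNARE bundle until calcium enters. Retinal photoreceptors and bipolar cells release transmitter at ribbon synapses, where the complexins Cplx3 and Cplx4 are found, whereas most other neurons use Cplx1 and Cplx2. At birth the rat retina still produces neurons, and much of its synaptic wiring is laid down later.

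All 8 arrays lay on 1 slide, with 72.1% to 86.5% of gene spots well above background and no saturated spot. The arrays numbered 5 were read in a second scan and those numbered 4 fell outside the quality limits of the software that extracted the spot values. All controls lay in columns 1 and 3 of the slide and all Klf4 arrays in columns 2 and 4, so that column and plasmid cannot be told apart. Crx and Rbp3, photoreceptor genes that mark retinal tissue, were well above background on all 8 arrays. The Klf4 probe itself read -3.27 ± 0.62 in controls and -3.0 ± 0.86 in Klf4 samples (normalised log2 signal, SD, n = 4 each), a difference of 0.27 (SE 0.46, limma adjusted p = 0.916). The files do not say whether the plasmid's transcript carries the probed sequence, so this probe gives no check of the group labels.

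Of the 25 genes tested, Rbfox3 rose and Cplx3 fell with Klf4, and the other 23 did not pass the threshold. Differences are Klf4 minus control on a log2 scale, after each array was set to its 75th percentile, and the threshold was a limma adjusted p under 0.05 over all 29988 features. The background against which these counts stand was 3.2% of all features higher and 0.467% lower, 3.67% in either direction. At an unadjusted p under 0.05 there were 5 genes: Rbfox3, Cplx3, Kcnc1, Map2 and Nsg2. The differences lay above 0 for 9 genes and below 0 for 16 (64%), while 61% of all features lay below 0. Their median was -0.23, beside -0.07 for all features. Setting each array by the percentile of its spots in place of its probes left 5 genes above 0 and 20 below. The groups of arrays did not overlap for 1 gene upward (Rbfox3) and 1 downward (Cplx3). Among all features 10.2% were apart, 5.74% upward and 4.48% downward.

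**Figure D1:**
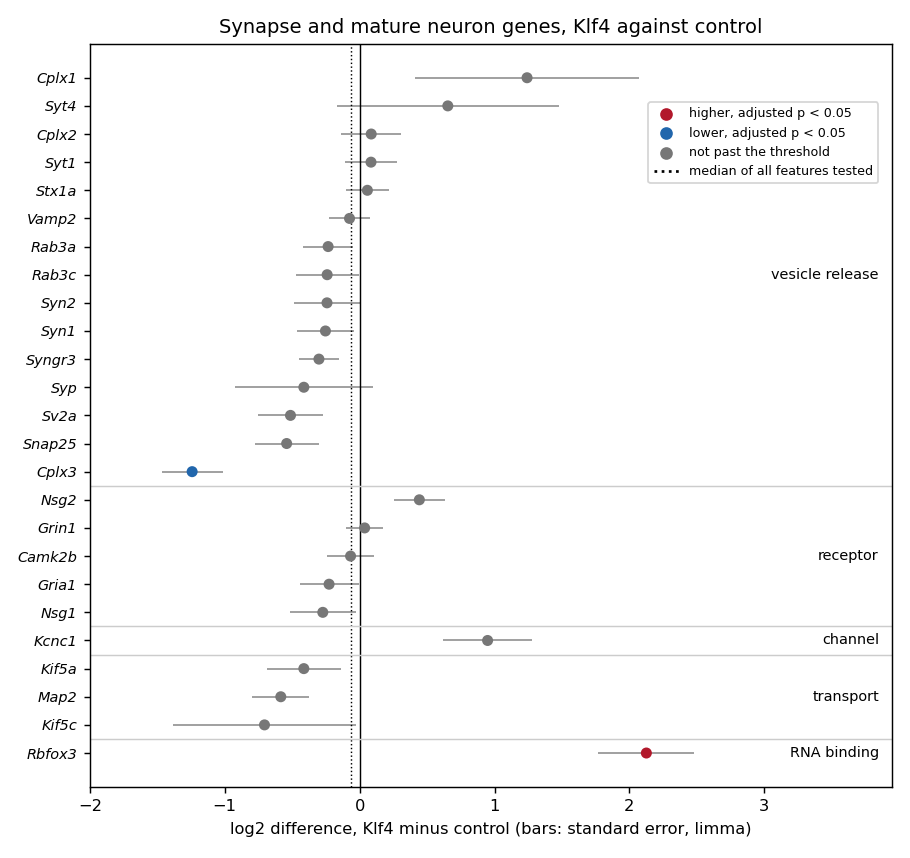
Log2 difference (Klf4 minus control, x axis) of each of the 25 genes tested, ordered within their roles, with the standard error of the limma fit as bars and the median of all features as a dotted line. Rbfox3 at 2.13 and Cplx3 at -1.24 are the genes past the threshold, while Cplx1, Syt4, Kif5c and Syp carry the widest errors.

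Rbfox3 encodes the splicing factor known as NeuN, whose antibody is the usual stain for postmitotic neurons. Its normalised log2 signal was -4.14, -3.06, -3.71 and -3.58 in control replicates 2 to 5, and -0.93, -1.51, -2.44 and -1.10 in Klf4 replicates 2 to 5. Every Klf4 array was higher than every control array, and the lowest Klf4 array was replicate 4. The difference of 2.13 (SE 0.36, 95% confidence interval 1.31 to 2.94, limma adjusted p = 0.0127) equals a 4.36-fold higher signal. The arrays of the first scan gave 2.01, with an adjusted p of 0.104 when fitted alone, and those of the second gave 2.47. Rbfox3 was well above background on all 8 arrays and kept its call in 19 of 20 alternatives. It had only 1 probe, so the mean over probes left its value unchanged and gives no second reading.

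Its relatives Rbfox1 and Rbfox2, which bind the same RNA element, did not pass the threshold. Rbfox2 read -1.81, -1.65, -1.61 and -1.0 in controls and -1.54, -1.52, -1.78 and -0.84 in Klf4 samples. These groups overlapped, and the difference was 0.10 (95% interval -0.47 to 0.67, limma adjusted p = 0.956). Rbfox1 differed widely among arrays of a group, from -4.50 to -0.26 in controls and from -4.74 to -0.82 in Klf4 samples. Its difference of -0.42 had a wide interval, -2.75 to 1.90. With the replicate number as a block the difference stayed at -0.42, and its SE fell from 1.02 to 0.20 (limma adjusted p = 0.414). The signs of both relatives turned when some single arrays were left out.

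**Figure D2:**
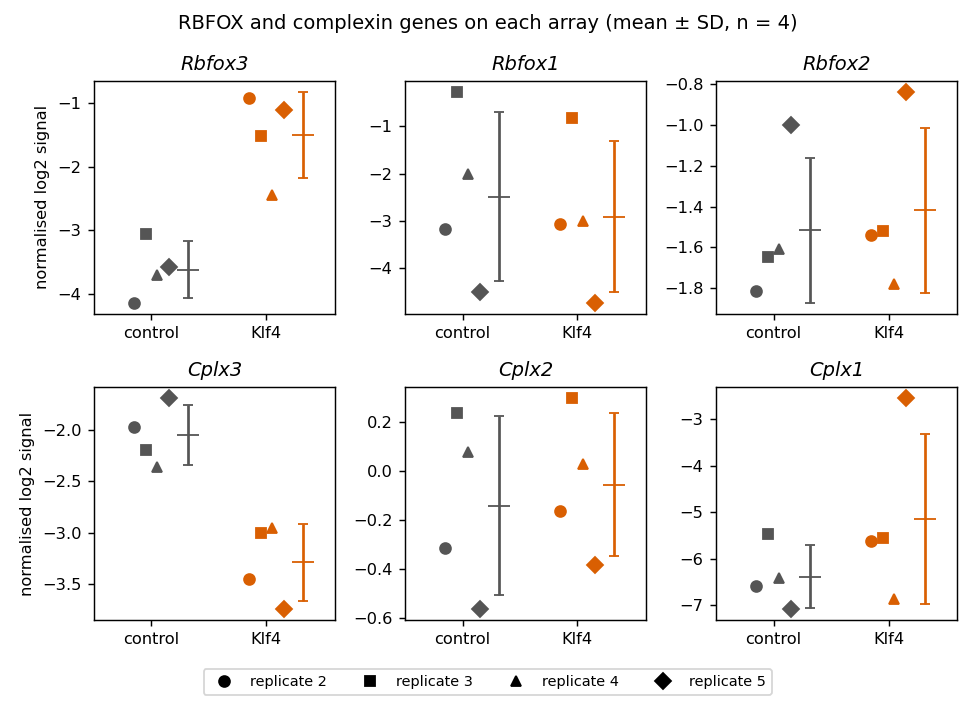
Normalised log2 signal (y axis, a separate scale in each panel) of 3 RBFOX genes and 3 complexins on each array, with symbols for the replicate number and the mean ± SD of 4 arrays beside them. The Klf4 arrays lie above all controls for Rbfox3 and below all controls for Cplx3, and the groups overlap in the other panels, where Cplx1 owes its high Klf4 mean to replicate 5.

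Cplx3 read -1.97, -2.19, -2.36 and -1.68 in control replicates 2 to 5, and -3.46, -3.01, -2.96 and -3.75 in the Klf4 samples. Each Klf4 array was lower than each control, with replicate 5 the highest control and the lowest Klf4 array. The log2 difference was -1.24 (SE 0.23, 95% confidence interval -1.76 to -0.73, limma adjusted p = 0.0193), a signal 0.423 times that of the controls. First-scan arrays gave -0.97 and second-scan arrays -2.07. Cplx3, too, was read by only 1 probe. The call was lost when the first scan was fitted by itself (adjusted p = 0.0695), with the replicate number as a block (0.0926), and without control replicate 2 (0.0738), control replicate 3 (0.0519) or Klf4 replicate 2 (0.0763). In a bulk sample such as this, fewer cells of a type and less RNA per cell cannot be told apart.

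Of 8 tested markers of photoreceptors, 2 fell and 6 did not pass the threshold. All 8 lay below 0. Over all features 61% lay below 0 and 0.467% were called lower. Crx fell by 0.84 (limma adjusted p = 0.0378) and Rbp3 fell by 1.10 (adjusted p = 0.0154). Crx lost its call in 10 of 20 alternatives and Rbp3 in 4. The log2 of their summed signal was 3.59 to 4.77 in controls and 2.76 to 4.08 in Klf4 samples, ranges that overlapped. Bipolar markers gave 0 calls among 4 tested (limma, 0 also at an unadjusted p under 0.05), all below 0, and summed to 2.18 to 2.50 in controls and 1.90 to 2.35 with Klf4. The bipolar marker Vsx1, too dim to be tested, was well above background on 0 control and 2 Klf4 arrays. Its signal was given as at least 1.63-fold higher with Klf4. The Klf4 mean behind that bound includes arrays not well above background, so the bound is not firm. Among 10 amacrine and horizontal cell markers none was called (limma, 0 also at an unadjusted p under 0.05), with sums of 2.47 to 3.17 and 1.92 to 2.82. The part of these cell types in the lower Cplx3 was not tested.

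The other ribbon complexin, Cplx4, did not pass the threshold, at -0.12 (95% interval -0.63 to 0.39, limma adjusted p = 0.928). Cplx2 read -0.31, 0.23, 0.08 and -0.56 in controls and -0.16, 0.30, 0.03 and -0.38 in Klf4 samples. In both groups replicate 3 was highest and replicate 5 lowest, and the difference of 0.09 (SE 0.22, interval -0.42 to 0.59) was smaller than the spread. Cplx1 was dim, well above background on 1 control and 3 Klf4 arrays. It read -6.58, -5.46, -6.41 and -7.08 in controls and -5.62, -5.56, -6.85 and -2.54 in Klf4 samples. Klf4 replicate 5 stood far above the rest, the groups overlapped, and the difference of 1.24 (SE 0.83, limma adjusted p = 0.678) was 0.14 within the first scan and 0.30 with normexp.

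The sequences just upstream of the complexin genes are shown because Cplx3 alone of these relatives passed the threshold. Klf4 and other KLF proteins bind GC-rich and CACCC elements. Each sequence holds the 250 bases before the annotated start, 5′ to 3′ on the gene's strand, from RefSeq on assembly GRCr8, with any CACCC or GGGTG in capitals. They lie at chr8:66906201-66906450 on the minus strand for Cplx3, chr17:10236754-10237003 on the minus strand for Cplx2 and chr14:1328823-1329072 on the plus strand for Cplx1.
Cplx3: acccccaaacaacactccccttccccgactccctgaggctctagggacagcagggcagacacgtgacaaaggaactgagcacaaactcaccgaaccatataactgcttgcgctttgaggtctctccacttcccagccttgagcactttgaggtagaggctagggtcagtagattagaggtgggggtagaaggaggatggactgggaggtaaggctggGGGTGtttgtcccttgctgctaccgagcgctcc
Cplx2: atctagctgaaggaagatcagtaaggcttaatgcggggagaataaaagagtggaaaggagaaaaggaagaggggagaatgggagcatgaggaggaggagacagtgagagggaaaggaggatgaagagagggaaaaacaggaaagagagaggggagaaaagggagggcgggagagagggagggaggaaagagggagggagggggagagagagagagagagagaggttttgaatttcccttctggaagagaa
Cplx1: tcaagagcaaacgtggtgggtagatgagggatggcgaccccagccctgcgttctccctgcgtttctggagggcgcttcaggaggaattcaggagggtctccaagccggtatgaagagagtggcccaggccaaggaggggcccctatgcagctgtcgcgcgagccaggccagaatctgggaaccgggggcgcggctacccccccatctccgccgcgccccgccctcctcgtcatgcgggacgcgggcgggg
Cplx3 holds 1 match, GGGTG, which begins 33 bases before the start, and Cplx2 and Cplx1 hold none in this window. The capitals do not mark GC-rich elements, so this contrast covers CACCC or GGGTG alone. The share of G and C was 56.4% for Cplx3, 50.8% for Cplx2 and 68.0% for Cplx1. Upstream sequences were in the table for 20 of the 27 genes, and 12 of those (60%) held CACCC or GGGTG, beside 49.2% of all 33469 such sequences. The longer letters GGGTGTG or CACACCC, which contain the shorter motif, were in 4 (20%): Grin1, Kif5c, Stx1a and Syt1, against 6.12% of all. GGGCGTG or CACGCCC was in Stx1a and Syn2, 10% against 6.7%. Matches describe the letters and show no binding, and of the genes with the longer motif none passed the threshold here. Rbfox3 had no upstream sequence to search, so of the called genes of the set only Cplx3 was examined.

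The SNARE genes of the set stayed below the threshold, while Vamp1, a relative of Vamp2 in the wider lists, fell. Vamp2, the vesicle SNARE, read 4.06 to 4.29 in controls and 3.88 to 4.42 with Klf4, with a difference of -0.07 (95% interval -0.41 to 0.26). Its second probe gave -0.47 and the mean over both probes -0.27. Stx1a, its partner on the plasma membrane, ranged from 1.12 to 1.46 and from 1.08 to 1.68, with a difference of 0.06 (interval -0.31 to 0.42) whose sign turned in 6 of 20 alternatives. Snap25, the third SNARE, read -0.96, -0.07, -0.42 and -0.90 in controls and -1.32, -0.72, -1.33 and -1.15 in Klf4 samples. All but Klf4 replicate 3 lay below the controls, and the difference of -0.54 (SE 0.24, interval -1.08 to 0.0008) gave a limma adjusted p of 0.419.

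Syt1, the fast calcium sensor, differed by 0.08 (95% interval -0.36 to 0.53) and its second probe by -0.15. Syt4, a member of the same family, scattered from -4.64 to -0.66 in controls and from -3.05 to -1.21 with Klf4. Its brighter probe gave 0.65 (SE 0.82) and the other -0.37, so that these probes disagree in sign for both synaptotagmins. Neither gene passed the threshold.

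None of the remaining 7 vesicle release genes, which encode other proteins of the vesicle or its tethering, passed the threshold. Sv2a, a vesicle glycoprotein, read -2.12, -1.55, -2.03 and -2.24 in controls and -2.50, -2.05, -2.37 and -3.08 in Klf4 samples, a difference of -0.51 (SE 0.24, limma adjusted p = 0.477). The groups overlapped through Klf4 replicate 3. Syngr3, a synaptogyrin, differed by -0.30 (SE 0.15, adjusted p = 0.493). The synapsins, which tie vesicles to actin and to each other, gave -0.25 for Syn1 (SE 0.21) and -0.24 for Syn2 (SE 0.24), and Syn2 was well above background on only 3 arrays of each group. Rab3a and Rab3c, GTPases that recruit vesicles to the release site, gave -0.23 (SE 0.18) and -0.24 (SE 0.23). Syp, the vesicle marker synaptophysin, had an outlier spot on control replicate 4, which was dropped. The 3 remaining controls read -0.90, -1.38 and -1.03, and the Klf4 samples -0.93, -1.41, -2.97 and -0.76. Klf4 replicate 4 alone set the difference of -0.41 (SE 0.51), which became 0.07 without that array.

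Over the 15 vesicle release genes the median difference was -0.24, with 5 genes above 0 and 10 below. The lowest was Cplx3, and the highest value was that of the dim Cplx1, tested only through the Klf4 arrays. The background of 61% below 0 over all features stands beside that count.

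**Figure D3:**
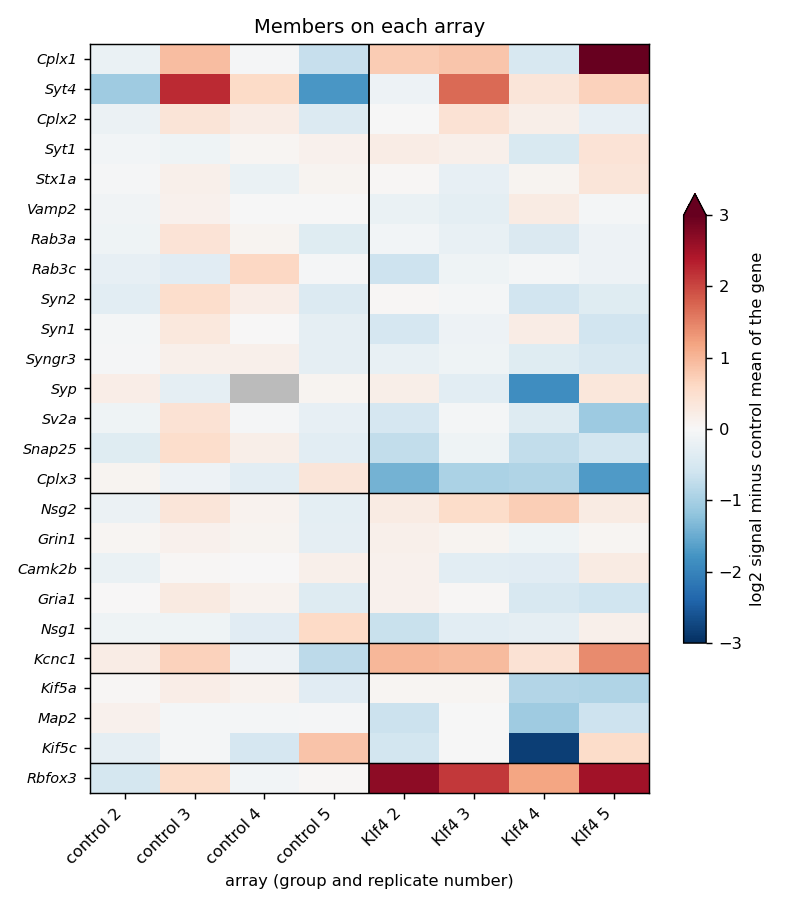
Deviation of each array (columns) from the mean of the controls (log2, colour capped at 3) for the 25 genes tested (rows), with a grey cell for the dropped Syp spot on control replicate 4. Rbfox3 is raised and Cplx3 lowered across all 4 Klf4 arrays, whereas Cplx1 departs on Klf4 replicate 5 and Syp and Kif5c on Klf4 replicate 4.

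None of the 5 receptor genes tested passed the threshold, and their median difference was -0.07. Grin1, the obligatory NMDA receptor subunit, read -0.83, -0.77, -0.81 and -1.16 in controls and -0.73, -0.82, -1.03 and -0.84 with Klf4. The difference of 0.04 (95% interval -0.28 to 0.35, limma adjusted p = 0.973) had the smallest standard error of the 25 genes (0.14), and its sign turned in 4 of 20 alternatives. Gria1, an AMPA receptor subunit, gave -0.23 (SE 0.22), and its second probe -0.70. Gria2, the subunit that makes AMPA receptors impermeable to calcium, read -7.41 to -7.20 in controls and -8.20 to -6.73 with Klf4. No fold is given for it, because neither group was above background.

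Nsg1 and Nsg2 encode endosomal proteins of neurons that take part in receptor recycling. Nsg2 read -0.42, 0.10, -0.15 and -0.55 in controls and -0.01, 0.30, 0.48 and -0.0013 with Klf4. Only control replicate 3 reached the range of the Klf4 arrays, and the difference of 0.44 (SE 0.19, interval 0.01 to 0.87) had a limma p of 0.0447 before and 0.397 after adjustment. Nsg1 went the other way in value, at -0.27 (SE 0.25, adjusted p = 0.782). Camk2b, a kinase subunit of the postsynaptic density, gave -0.07 (interval -0.47 to 0.33).

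Kcnc1, the channel of the set, encodes a potassium channel subunit that lets neurons fire at high rates. It read -4.39, -3.92, -4.77 and -5.41 in controls and -3.62, -3.67, -4.19 and -3.21 in Klf4 samples. Klf4 replicate 4 fell among the controls and the other Klf4 arrays lay above them. The difference of 0.95 (SE 0.33, interval 0.20 to 1.70) had a limma p of 0.0194 before and 0.251 after adjustment. First-scan arrays gave 0.53, second-scan arrays 2.20, and the second probe gave 0.73. With normexp background correction the difference was 0.36 (adjusted p = 0.439).

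None of the 3 transport genes passed the threshold, and their median was -0.58. That median was -0.26 without Klf4 replicate 4, -0.22 without both arrays numbered 4, -0.27 with normexp and -0.16 with array weights. Map2, a microtubule protein of dendrites, read 1.46, 1.26, 1.27 and 1.30 in controls and 0.68, 1.31, 0.26 and 0.69 with Klf4. The controls lay close together, 3 Klf4 arrays lay below them and Klf4 replicate 3 lay within their range. The difference of -0.58 (SE 0.21, interval -1.07 to -0.10) had a limma p of 0.0238 before and 0.280 after adjustment. Kif5c, a kinesin heavy chain of neurons, read -4.19, -3.98, -4.43 and -3.06 in controls and -4.46, -3.92, -6.74 and -3.36 with Klf4. Klf4 replicate 4 again stood apart, and the difference of -0.71 (SE 0.68) became 0.0003 without it. Its relative Kif5a gave -0.41 (SE 0.27, adjusted p = 0.671).

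The arrays did not contribute evenly to these values. Over the 24 genes measured on all 8 arrays, control replicate 3 was the highest of its group in 16 and control replicate 5 the lowest in 13. Klf4 replicate 4, which had the lowest share of spots above background (72.1%), was the lowest of its group in 11. Leaving out Klf4 replicate 4 brought the count to 12 genes above 0 and 13 below.

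The wider pathway was followed in 136 other genes in 5 lists, of which 9 had no probe by accession, 9 were too dim and 118 were tested. Of these 4 rose, 2 fell and 112 did not pass the threshold, beside the background of 3.2% and 0.467%. Their median difference was -0.08, with 49 above 0 and 69 below. The number of falls was 0 with no filter on dim probes, with arrays set by their median, and in the first scan by itself. Without Klf4 replicate 4 there were 7 rises and 4 falls, and without any 1 control 0 falls.

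Among 44 other vesicle release genes Rab3d rose and Rab3b and Vamp1 fell, beside 3.2% and 0.467% of all features. Rab3d read -3.69, -3.44, -3.36 and -3.31 in controls and -2.43, -2.48, -2.11 and -2.28 with Klf4. The Klf4 arrays lay above all controls, with a difference of 1.12 (SE 0.14, limma adjusted p = 0.00321) and a call in all 20 alternatives. Rab3b read -0.20, 0.37, 0.19 and -0.07 in controls and -1.49, -0.58, -0.77 and -1.25 with Klf4, a difference of -1.09 (SE 0.23, adjusted p = 0.0385). Of this family of vesicle GTPases, Rab3d and Rab3b were thus called in opposite directions while Rab3a and Rab3c did not pass the threshold. Vamp1, the relative of Vamp2, read 4.53, 4.49, 4.33 and 4.48 in controls and 3.44, 3.68, 4.03 and 3.49 with Klf4. All Klf4 arrays lay below the controls, by 0.80 on average (limma adjusted p = 0.0275), and its other probes gave -1.18 and -0.88. Rab3b lost its call in 10 of 20 alternatives and Vamp1 in 11, with adjusted p up to 0.170 and 0.137.

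Among 14 other transport and microtubule genes Trak1, an adaptor that couples mitochondria to kinesin, rose, beside 3.2% of all features. It read 2.91, 2.67, 2.59 and 2.41 in controls and 4.15, 3.59, 3.88 and 4.24 with Klf4. The groups lay apart, the difference was 1.32 (SE 0.18, limma adjusted p = 0.00480), and the call held in all 20 alternatives, while a second probe gave 0.78. The median of this list was 0.22, opposite in sign to that of the 3 transport genes above.

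Among 12 other neuronal RNA binding genes Celf5 and Elavl3 rose, beside 3.2% of all features. The list held 6 genes above 0 and 6 below. Elavl3, the neuronal RNA stabiliser also called HuC, read -0.10, 0.81, 0.27 and 0.34 in controls and 1.33, 1.33, 1.27 and 1.76 with Klf4, a difference of 1.09 (SE 0.21, limma adjusted p = 0.0256). Celf5, a splicing regulator, read -2.03, -1.94, -2.43 and -3.50 in controls and -0.63, -0.81, -0.91 and -0.81 with Klf4, a difference of 1.68 (SE 0.32, adjusted p = 0.0242). Both sets of Klf4 arrays lay above their controls, as did those of 5.74% of all features. The probes of Celf5 disagreed in size, since the second gave 0.40, and the probes of Elavl3 gave 1.09 and 0.84. Celf5 lost its call in 7 of 20 alternatives and Elavl3 in 10, with adjusted p up to 0.122 and 0.132. The median of the list was 0.04.

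Of 36 other postsynaptic receptor and scaffold genes none passed the threshold in limma, with 5 at an unadjusted p under 0.05 and a median of -0.09. Of 12 other voltage-gated potassium channel genes 0 passed in limma, 0 also had an unadjusted p under 0.05, and the median was -0.01.

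**Figure D4:**
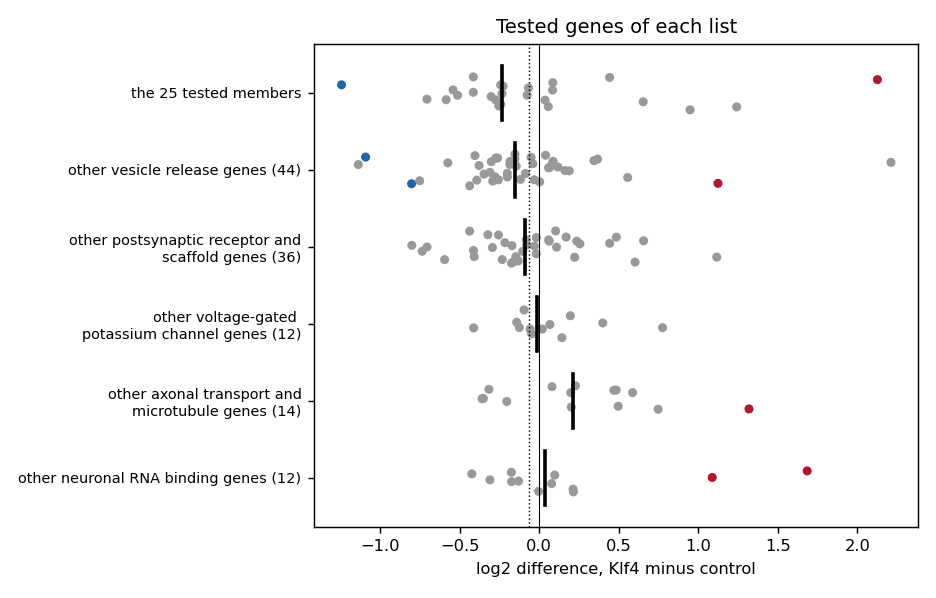
Log2 difference (Klf4 minus control, x axis) of each gene tested in the 25-gene set and in 5 lists of other synaptic and neuronal genes, with black bars at the list medians, a dotted line at the median of all features, and genes past the threshold in red (higher) or blue (lower). The medians lie between -0.23 for the set and 0.22 for the other transport genes, and in the vesicle release list some genes that did not pass the threshold (grey) lie as far from 0 as those that did.

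Ganglion cell markers, the nearest check on mature projection neurons, gave no call among 5 tested (limma, 1 at an unadjusted p under 0.05). Of these, 3 lay above 0 and 2 below. The highest was Rbpms at 0.94, where Klf4 replicate 4 lay among the controls and the other Klf4 arrays above them. The check was partial, since Pou4f1 had no probe and Sncg and Thy1 were too dim to be tested. Sncg was well above background on 0 control arrays and 1 Klf4 array, and Thy1 on 2 arrays of each group. The log2 of the summed signal of the 5 tested was -0.33 to -0.06 in controls and -0.27 to 0.10 with Klf4. Progenitor and Muller glia markers gave no call among 8 (limma, 1 at an unadjusted p under 0.05), with sums of 6.11 to 6.70 and 6.35 to 6.47. Of the markers of non-neuronal cells, 1 in each of 4 lists was called higher with Klf4, and the other members tested were not called. Over all features 3.2% were called higher. Tek was called for endothelium (1 of 3 tested, 2.38, limma adjusted p = 0.00160), while Cdh5 gave -0.01 and the list median was 0.03. Col1a1 was called for pericytes and fibroblasts (1 of 3, 1.36, adjusted p = 0.00123), while Pdgfrb gave -0.86 and Acta2 -0.11, the list median. C1qb was called for microglia (1 of 6, 1.04, adjusted p = 0.0242, lost in 6 of 20 alternatives), with 3 members above 0, 3 below and a list median of 0.07. S100b was called for astrocytes (1 of 3, adjusted p = 0.0319), while Gfap gave -0.40, the list median, and Pdgfra -0.44. The S100b probe was well above background on 2 control and 4 Klf4 arrays, so it was tested only through the group in which it was brighter. Its difference was 3.80, and 1.85 with normexp background correction, and the call was lost in 11 of 20 alternatives (adjusted p up to 0.166). The log2 summed signal was 6.56 to 6.83 in controls and 6.45 to 7.28 with Klf4 for endothelium, 2.22 to 2.82 and 3.13 to 3.47 for pericytes and fibroblasts, -1.62 to -0.79 and -1.22 to -0.54 for astrocytes, and 2.04 to 2.45 and 2.23 to 2.45 for microglia. The endothelium sum rested almost wholly on Kdr, which by itself read 6.55 to 6.83 in controls and 6.43 to 7.27 with Klf4. Of these 4 lists the pericyte and fibroblast sums lay apart between the groups, and there Col1a1 was the one member above 0. No marker was called for pigment epithelium (1 tested), lens (3) or red blood cells (3; limma, 0 also at an unadjusted p under 0.05 in all these lists), and Tyr and Hbb were not well above background on any array. The part of any of these cell types in the results for synaptic genes was not tested.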

How the data were processed

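Gene expression was measured on 8 Agilent single-colour arrays. Per the file headers, Cy3-labelled RNA was extracted to spot values with Feature Extraction 10.7.3.1, and the deposited intensity, from which that software had subtracted background and trend, is not scaled between arrays. The deposited flags (control type, well above background, saturated, outlier spot) come from the same software. The authors also deposited 1 table of log2 values with equal medians (7.54 in each column), and the steps that made it are not given in the sources used here. Its columns matched their own arrays (r across probes 0.994 to 1.00), so its scale is log2 and its direction that of the signals.

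Control and outlier spots were dropped, log2 intensities of a probe's spots averaged, and each array's 75th percentile over gene probes subtracted. The 75th percentile over spots was run first. The percentile over probes replaced it after that result had been seen, to match earlier processing of these data, and the spots remain an alternative chosen after seeing the data. A probe was kept where at least 3 of 4 arrays of a group were well above background, and the brightest kept probe stood for its gene. Probes were named through RefSeq accessions (GRCr8): 21109 had 1 symbol, 0 several and 24489 none. No array coordinates are given, because the headers name another build. Groups were compared with limma 3.58.1 in R 4.3.3 (lmFit, eBayes, two-sided, no covariates, Benjamini-Hochberg over 29988 features, threshold 0.05), tested first on simulated data. The normexp alternative (offset 50) used median in place of mean spot signals. A sample was taken to stand apart in its group of 4 where Dixon's ratio passed 0.829. Figures were drawn with matplotlib 3.10.9.

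The genes and lists were chosen with earlier results of these data known. All listed genes are named. Of the other lists, genes past the threshold, relatives of called genes and called markers are named. A fold written as at least N sets the brighter group's mean against the dimmer group's mean of, per array, the higher of the probe's own signal and the lowest signal well above background. Kept probes disagree where their signs differ or their differences lie more than 1 apart. The number of arrays limits the precision.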

Additional observations from a re-analysis of the deposited data

Results flagged for a closer look

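In the 67 groups of 4 arrays examined for the named genes, 2 held a sample far from the others, where chance gives about 1 in 20. Control replicate 5 read -1.16 for Grin1, the NMDA receptor subunit, while the other controls lay between -0.83 and -0.77. Klf4 replicate 5 read 1.76 for Elavl3, the neuronal RNA binding protein, while the other Klf4 samples lay between 1.27 and 1.33. Both arrays were read in the second scan.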

How the results depend on the processing

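Of the 25 genes in 20 alternatives, 470 values kept their sign and their side of the threshold, 24 reversed and 6 lost a call. The 24 reversals were all of genes not past the threshold. Rbfox3 lay between 1.61 and 2.44 (adjusted p 0.000736 to 0.104) and Cplx3 between -1.46 and -0.90 (0.00416 to 0.0926). With the first scan alone, 0 of the 25 genes rose and 0 fell, and 0 other synaptic genes fell. The count of other synaptic genes that fell, 2 in the fit reported, was 0 with no filter on dim probes, 0 after setting arrays by their median, 8 with array weights and 1 without both arrays numbered 4. The count that rose, 4, was 2 with the mean over probes, 11 with array weights and 2 without both arrays numbered 4.

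Same-numbered samples of the groups correlated at 0.36, 0.24, 0.06 and 0.55 in their deviations from the group means, and control replicate 4 correlated best with Klf4 replicate 2 (0.21). Replicates 2, 3 and 5 correlated best with their own number. The labels do not say what the numbers mark, and 1 of the 4 pairs stayed under 0.1, so the numbers were not taken to pair the samples. These correlations do not show that the samples are unpaired. Number 5 also marks the scan and number 4 the quality limits. With the replicate block 0 of the 25 genes fell, 1 other synaptic gene fell, and Syp turned to 0.071, while 842 features rose and 101 fell. The block also ended the calls of Vamp1 (adjusted p = 0.0833), Elavl3 (0.0513), Crx (0.0610) and S100b (0.0590).

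When each replicate was left out in turn, 1 of the 25 genes (Rbfox3) rose each time and 0 to 1 fell, and their median lay between -0.27 and -0.10. Of the other synaptic genes 2 to 7 rose and 0 to 4 fell. None fell without any 1 control or without Klf4 replicate 2 or 5, 1 fell without Klf4 replicate 3 and 4 fell without Klf4 replicate 4. Rises numbered 2 without control replicate 4 or Klf4 replicate 2, 3 or 5, and 7 without Klf4 replicate 4. Signs turned within these ranges for Stx1a (-0.045 to 0.16), Syt1 (-0.027 to 0.26), Cplx2 (-0.055 to 0.21), Syp (-0.67 to 0.071), Grin1 (-0.051 to 0.10), Camk2b (-0.17 to 0.026), Kif5c (-1.12 to 0.0003), Rbfox1 (-1.12 to 0.32), Rbfox2 (-0.10 to 0.27), Cplx4 (-0.34 to 0.014) and Klf4 (-0.15 to 0.54).

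Other reversals were Cplx4 with normexp (0.019), Syt1 with the mean over probes (-0.034), Stx1a (-0.02) and Grin1 (-0.056) in the first scan alone, and Stx1a (-0.0093) and Kif5c (0.036) with array weights. Without both arrays numbered 4, Stx1a read -0.015, Syp 0.071 and Camk2b 0.032. With the percentile over spots, Stx1a read -0.033, Syt1 -0.0061, Cplx2 -0.0046 and Grin1 -0.053, and the median of the 25 genes was -0.32. The cause of these changes was not tested.

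Over all features 961 rose and 140 fell. These counts were 734 and 197 with the percentile over spots, 1805 and 1171 with array weights, 635 and 48 in the first scan alone and 1147 and 255 with the scan as a block. Falls numbered 70 with no filter, 93 after setting arrays by their median, and 32 to 406 with 1 replicate left out, when rises numbered 604 to 1221. Dim probes such as those of Cplx1, Gria2 and Syn2 lie near the background, and signal over background limits what can be read from them.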
